A study of Mus musculus with 2 samples.

Results

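Ribosome biogenesis was examined through 36 genes of the nucleolus, chosen by symbol from the 31053 genes in the files, and all 36 had UMIs in both libraries. Cells were dissociated from the kidney cortex at 12 weeks of age and captured in droplets, where a unique molecular identifier (UMI) marks each RNA molecule so that it counts once. The library with podocyte-specific I-PpoI and the wild-type library are 1 each. The labels do not give the number or strain of the mice, the promoter that drives I-PpoI, or how long it had been expressed. I-PpoI is a homing endonuclease, and its recognition site lies in the repeated genes for the large ribosomal RNA. Podocytes, the epithelial cells of the glomerular filter in which I-PpoI is expressed, formed no cluster here. No podocyte class is therefore compared, and the classes below are of other cell types.

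The nucleolus is where RNA polymerase I transcribes ribosomal RNA genes, where small nucleolar ribonucleoproteins (snoRNPs) modify the transcript, and where processing factors cut it and assemble it with ribosomal proteins into the small and the large subunit. Demand for this pathway follows growth: cells that divide or enlarge make many ribosomes, and MYC is a known activator of its genes. The 36 genes were grouped by role into 4 abundant nucleolar proteins, 8 genes of polymerase I transcription, 4 of the box C/D and 4 of the box H/ACA snoRNPs, 8 of small subunit processing and 8 of large subunit processing.

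Several of these genes share features of sequence and structure. Of the 36, 6 (16.67%) hold snoRNA genes inside them on the same strand in the GENCODE M21 annotation: Ncl 3, Nop56 5, Nop58 4, Dkc1 1, Wdr43 3 and Gnl3 3. Among all 22028 protein-coding genes the count is 259 (1.176%). The hexamer CACGTG, the E-box that MYC and its partners can bind, reads the same on both strands. It was searched from 250 bases before to 50 bases after the annotated start of the 31 genes with an entry in the RefSeq promoter table, build GRCm38.p6. It occurs in 6 of these 31 genes (19.35%) and in 2187 of all 27025 genes of the table (8.093%). A match is a description of letters and not a shown binding site. The 6 stretches around it are shown because these genes share the motif, in capitals, at different distances from the start. Those of Nop2, Rrn3, Utp20 and Wdr43 are printed although these genes lie outside the naming rule for sequences. The strand and the coordinates are chr11:72441347-72441376 (+) for Mybbp1a, chr6:125131811-125131840 (+) for Nop2, chr11:3963965-3963994 (+) for Pes1, chr16:13780472-13780501 (+) for Rrn3, chr10:88826765-88826794 (-) for Utp20 and chr17:71616220-71616249 (+) for Wdr43.
Mybbp1a: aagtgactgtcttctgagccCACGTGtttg
Nop2: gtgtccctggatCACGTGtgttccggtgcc
Pes1: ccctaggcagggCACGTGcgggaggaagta
Rrn3: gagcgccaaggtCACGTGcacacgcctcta
Utp20: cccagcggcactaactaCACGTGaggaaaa
Wdr43: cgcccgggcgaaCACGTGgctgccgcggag

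In Nop2 and Rrn3 the hexamer begins 60 and 215 bases before the start, and in Pes1, Wdr43, Utp20 and Mybbp1a it begins at base 3, 18, 38 and 41 from the start. For comparison, the 250 bases before the start of Ncl (chr1:86359456-86359705, - strand) and of Gar1 (chr3:129831397-129831646, - strand) are shown, since Ncl is among the 36 genes with the most UMIs and Gar1 differed strongly between the libraries. Neither stretch holds CACGTG, and their G and C content is 69.6% and 61.6%.
Ncl: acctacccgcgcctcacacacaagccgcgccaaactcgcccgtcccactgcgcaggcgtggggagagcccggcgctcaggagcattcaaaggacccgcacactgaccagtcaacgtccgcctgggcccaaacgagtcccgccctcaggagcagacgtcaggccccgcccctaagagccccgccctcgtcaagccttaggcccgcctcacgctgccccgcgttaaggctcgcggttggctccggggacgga
Gar1: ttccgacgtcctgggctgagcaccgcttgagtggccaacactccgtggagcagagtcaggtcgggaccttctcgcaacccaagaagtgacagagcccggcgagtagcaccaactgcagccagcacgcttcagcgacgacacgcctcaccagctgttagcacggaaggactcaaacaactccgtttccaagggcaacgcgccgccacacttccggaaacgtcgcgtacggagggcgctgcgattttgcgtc

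The I-PpoI cells held a median of 6611.5 UMIs and 1951.5 genes and the wild-type cells 3484 UMIs and 1348 genes. Mitochondrially encoded genes took a median of 3.313% against 14.296% of a cell's UMIs. Cells were grouped into classes rebuilt from clusters and marker genes, with all markers of each compared class detected in both libraries. A level below is in CPM, the UMIs of a gene per 1000000 UMIs of the class, and a ratio is the I-PpoI level over the wild-type level. Intervals are exact, of 95%, and cover counting error only: each group is a single library, so no replicate, test or p-value exists. A gene is called higher or lower where its ratio is at least 2 or at most 0.5, its interval leaves out 1 and it has at least 20 UMIs over both libraries. Of the barcodes, 6 occur in both libraries.

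The summed level of the 36 genes separated cell classes. The order is given among classes with at least 50 cells in a library. In the I-PpoI library T cell-like cells stood highest at 3096 CPM (2978 to 3219, 259 cells), followed by thick ascending limb-like cells at 2630 (2580 to 2681) and proximal tubule-like cells at 2462 (2420 to 2505). Dendritic-like (2369), mesangial and mural-like (2179), macrophage-like (2163) and endothelial-like cells (2134) lay close together, with overlapping intervals between the last 3. Fibroblast-like cells were at 1995, and neutrophil-like cells, short-lived cells that no longer divide, were lowest of these classes at 1198 (1096 to 1306). Among classes with fewer cells, B and plasma-like cells were at 1023 (918.2 to 1136) in the I-PpoI and 2602 (2266 to 2973) in the wild-type library (30 cells each), and wild-type dendritic-like cells were at 2700 (2479 to 2936, 23 cells). Deep cells weigh heavily in the I-PpoI B and plasma-like level (341249 UMIs in 30 cells, with a median of 4150). In the wild-type library T cell-like cells were again highest of these classes at 2587 (2366 to 2824), but proximal tubule-like cells were lowest at 1218 (1195 to 1241), below thick ascending limb-like cells at 1486 (1437 to 1536). T cell-like cells thus stood 2.124-fold (1.939 to 2.323) above proximal tubule-like cells in the wild-type library and 1.258-fold (1.205 to 1.312) in the I-PpoI library. Haemoglobin and other erythroid marker genes reached 29000 CPM in the wild-type T cell-like cells against 37.5 in the I-PpoI ones, and the part of this in the level was not tested.

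**Figure D1:**
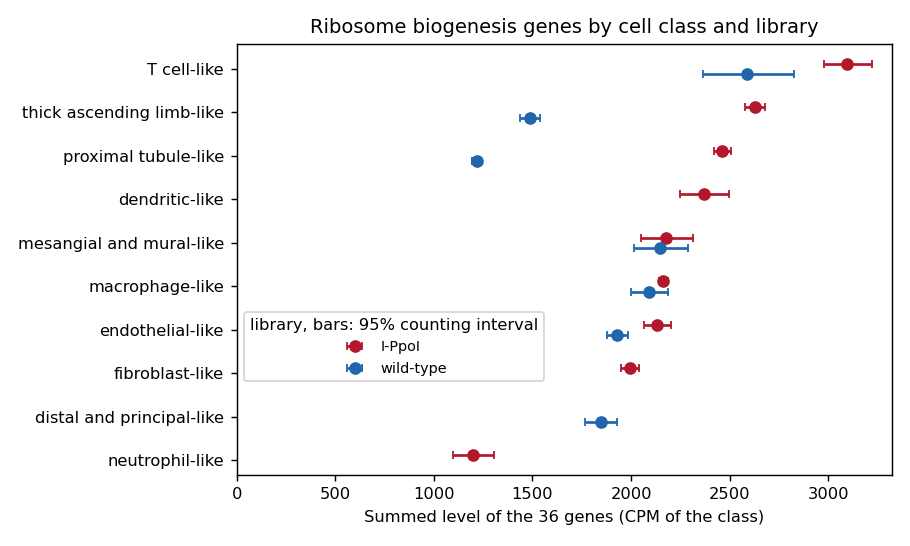
Summed level of the 36 genes in CPM of the class (x axis) for each class with at least 50 cells in a library (y axis), with 95% counting intervals; red is I-PpoI and blue wild-type. The 2 libraries lie apart in the proximal tubule-like (2462 against 1218) and thick ascending limb-like class (2630 against 1486) and close together in macrophage-like cells (2163 against 2092).

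Single genes followed the sum in part. Of the 36 genes, 18 had their highest level in T cell-like cells and 24 their lowest in neutrophil-like cells, over 9 classes of the I-PpoI library. Over 7 wild-type classes, 15 were highest in T cell-like and 16 lowest in proximal tubule-like cells. Among the genes highest in T cell-like cells, the interval was clear of the next class only for Npm1 in both libraries and Tcof1 in the I-PpoI library. Some wild-type values there rest on few UMIs, such as 3 for Nop2 and 4 for Heatr1. How many of all genes are highest or lowest in these classes is not given, so the counts are not read as a property of these genes. Tcof1, which encodes the treacle protein that brings polymerase I to ribosomal DNA, stood at 73.8 CPM in I-PpoI T cell-like cells against 37.2 in the next class, macrophage-like cells. Npm1 ranged from 882 in T cell-like to 95.7 in neutrophil-like cells. Other genes had other orders. Nop10, the small H/ACA protein, was highest in proximal tubule-like cells (297, next 211 in thick ascending limb-like cells) and lowest in endothelial-like cells (111). Polr1d, a subunit shared by polymerases I and III, varied little, from 179 in endothelial-like to 266 in T cell-like cells, with neutrophil-like cells second at 247.5. For these and other genes the colour map of levels by class shows which columns stand apart.

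**Figure D2:**
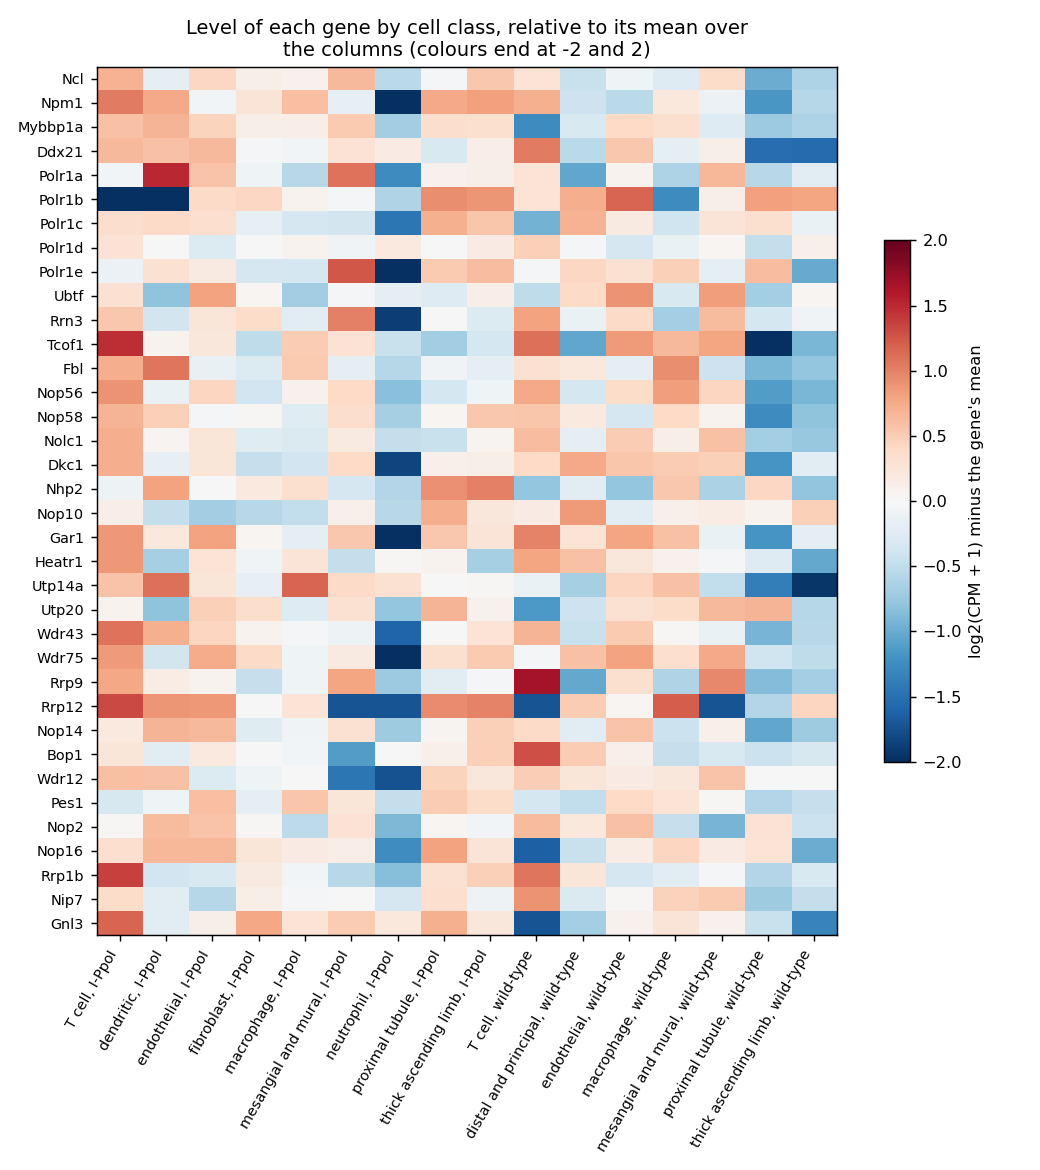
Each row is 1 of the 36 genes and each column a class with at least 50 cells in a library; colour is log2(CPM + 1) minus the gene's mean over the 16 columns. The wild-type proximal tubule and thick ascending limb columns and the I-PpoI neutrophil column are blue for most genes, and the T cell column of the I-PpoI library is red for most.

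Proximal tubule-like cells belong to the segment that reabsorbs most filtered solutes. Their listed markers summed to 5536 CPM in the I-PpoI and 44970 CPM in the wild-type cells, with all 14 detected in both. The summed level of the 36 genes was 2.021-fold higher in the I-PpoI library (1.97 to 2.074; 12813 and 11027 UMIs, 434 and 1344 cells). Of the 36 genes 34 were higher. The median log2 ratio was 0.79 (0.52 to 1.11 over the genes), beside 0.42 over all 11361 genes measured, and 27 of the 36 lay above that all-gene median. Called higher were 14 of 36, where 25.5% of all genes measured were called higher. No member was called lower (6.5% of all genes). In thick ascending limb-like cells, the salt-reabsorbing segment marked by Umod, the summed level was 1.77-fold higher (1.703 to 1.84; 262 and 289 cells), with markers at 5541 against 29810 CPM. Again 34 genes were higher, 30 of them above the all-gene median, with a median of 0.77 (0.44 to 0.96) beside 0.28 over 10938 genes. Called higher were 11 (17.5% of all genes) and called lower 0 (6.91%). The classes share 6 called genes, given in full by role below: Npm1, Ddx21, Nop58, Utp14a, Nop14 and Gnl3, which are 42.86% of those called in the proximal tubule and 54.55% of those called in the limb. In build GRCm38 these genes lie at chr11:33152287-33163206, chr10:62580251-62602281, chr1:59684971-59719044, chrX:48256862-48282453, chr5:34638536-34660148 and chr14:31012433-31019152, in that order. Both classes come from the same pair of libraries, and the overlap over all genes called higher is not given. The 6 shared genes are therefore not read as a result about these genes. Values by cluster, given further on, bear on both results.

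**Figure D3:**
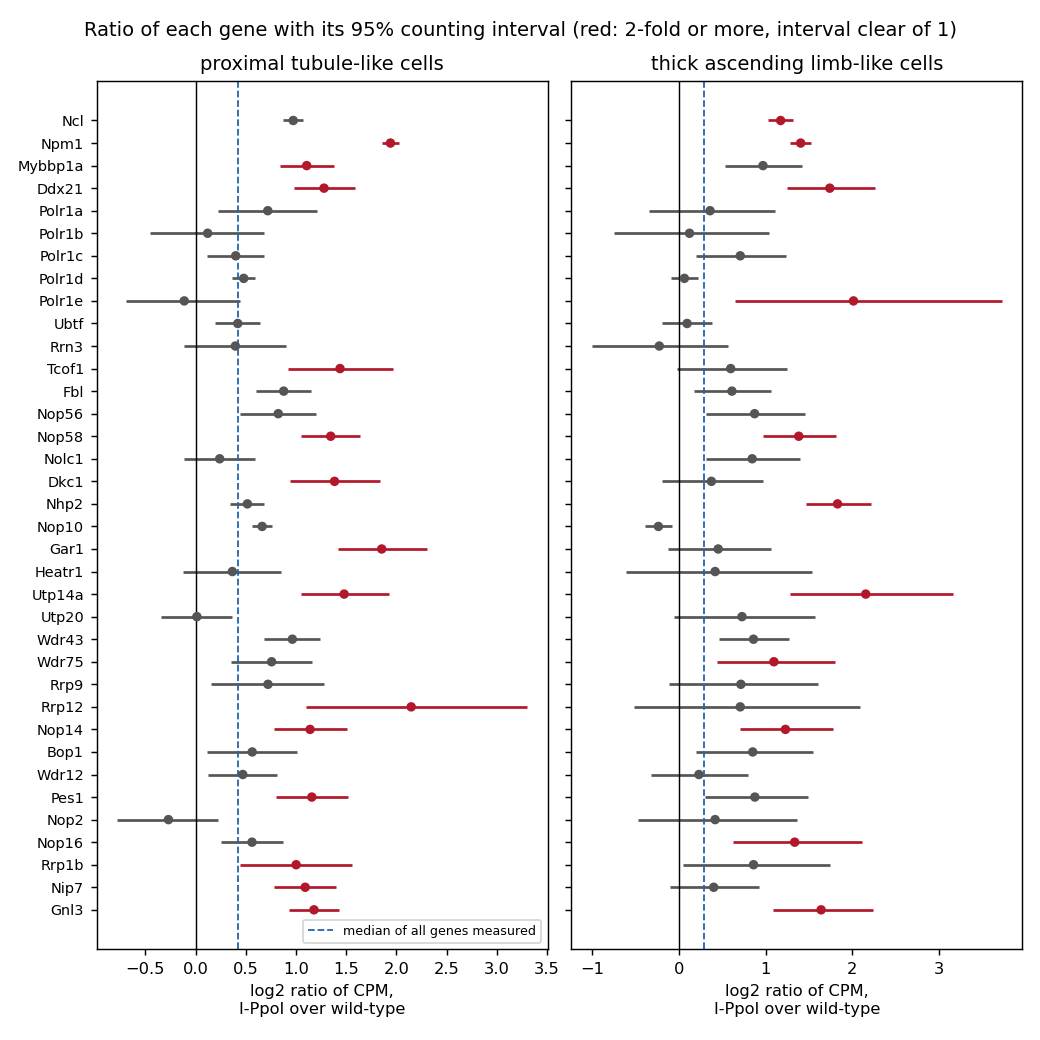
Log2 ratio of each gene, I-PpoI over wild-type (x axis), with its 95% counting interval in proximal tubule-like (left) and thick ascending limb-like cells (right); red marks genes called higher and the dashed line the median of all genes measured (0.422 and 0.284). Most points lie right of 0 in both panels, with Npm1 at a ratio of 3.838 and 2.645.

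The abundant nucleolar proteins differed most. Npm1, nucleophosmin, a chaperone of the outer nucleolus, stood at 726 CPM in I-PpoI and 189 in wild-type proximal tubule-like cells, a ratio of 3.838 (3.624 to 4.066). In thick ascending limb-like cells it stood at 758 against 287 (2.645, 2.432 to 2.881). Npm1 was higher by less elsewhere, with ratios of 1.387 (1.251 to 1.539) in endothelial-like, 1.314 (1.195 to 1.449) in macrophage-like and 1.264 (1.051 to 1.529) in T cell-like cells, and 0.9704 (0.7858 to 1.199) in mesangial and mural-like cells. Ncl, nucleolin, which binds nascent ribosomal RNA, stood at 319 against 162.5 in the proximal tubule (1.962, 1.828 to 2.106, just under the threshold of 2) and at 475 against 211 in the limb (2.254, 2.039 to 2.494). Ncl and Npm1 together made up 42.43% of the UMIs of the 36 genes in I-PpoI and 28.87% in wild-type proximal tubule-like cells. Without them the summed level was 1417 against 866.5. Ddx21, an RNA helicase of the nucleolus, stood at 42.1 against 17.3 in the proximal tubule (2.426, 1.968 to 2.998) and 57.3 against 17.2 in the limb (3.338, 2.376 to 4.797). Mybbp1a, a nucleolar regulator of polymerase I, was at 49.0 against 22.8 (2.153, 1.785 to 2.6) and at 47.9 against 24.5 (1.957, 1.448 to 2.681). Genes near-identical to Npm1 exist in the mouse genome, and how the authors' counting treated them is not given in the sources used here.

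The genes of polymerase I transcription differed less than the other groups, with a median log2 ratio of 0.41 in the proximal tubule and 0.22 in the limb. Both values lie under those of all genes (0.42 and 0.28). Polr1a, the largest catalytic subunit, stood at 13.4 against 8.17 CPM in the proximal tubule (1.646, 1.17 to 2.313). Polr1b, the second largest, stood at 8.65 against 7.95 (1.087, 0.732 to 1.6), an interval that includes 1. Polr1c and Polr1d, both shared with polymerase III, had ratios of 1.319 (1.08 to 1.609) and 1.394 (1.287 to 1.508), and Ubtf, the upstream binding factor that opens ribosomal DNA, had 1.338 (1.144 to 1.565). In the limb, Polr1d and Ubtf had ratios of 1.044 (0.9382 to 1.162) and 1.067 (0.8761 to 1.304). Rrn3, which recruits the polymerase to the promoter in growing cells, was at 11.3 against 8.62 in the proximal tubule and 9.17 against 10.7 in the limb, both with intervals that include 1. The exceptions were Tcof1 in the proximal tubule (15.6 against 5.74, 2.71, 1.889 to 3.916; 81 and 52 UMIs) and the polymerase subunit gene Polr1e in the limb (8.66 against 2.15, 4.035, 1.57 to 13.22; 34 and 5 UMIs). Polr1e was at 8.07 against 8.73 in the proximal tubule (0.9248, 0.6204 to 1.361).

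In the box C/D snoRNP, which places methyl groups on ribosomal RNA, all 4 genes were higher in both tubule classes, with medians of 0.85 and 0.84. Nop58, a core protein, was called in both: 46.3 against 18.2 CPM in the proximal tubule (2.541, 2.076 to 3.116) and 66.0 against 25.3 in the limb (2.605, 1.957 to 3.517). Its partner Nop56 stood at 23.4 against 13.3 (1.769, 1.363 to 2.295) and 28.3 against 15.4 (1.83, 1.246 to 2.744). Fbl, fibrillarin, the methyltransferase itself, stood at 43.4 against 23.6 (1.837, 1.517 to 2.225) and 40.0 against 26.2 (1.527, 1.129 to 2.088). The snoRNP chaperone gene Nolc1 had a ratio of 1.181 (0.9204 to 1.51) in the proximal tubule, an interval that includes 1, and 1.795 (1.246 to 2.635) in the limb.

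The box H/ACA snoRNP, which converts uridines of ribosomal RNA to pseudouridine, did not move as one group in the limb. In the proximal tubule Gar1 stood at 25.9 against 7.18 CPM (3.613, 2.668 to 4.935) and Dkc1, dyskerin, the pseudouridine synthase, at 20.7 against 7.95 (2.609, 1.919 to 3.566). Nhp2 and Nop10 were higher by less, with 1.43 (1.272 to 1.607) and 1.583 (1.477 to 1.697). In the limb the order was another: Nhp2 stood at 108 against 30.5 (3.552, 2.757 to 4.634), Gar1 and Dkc1 had ratios of 1.368 and 1.296 with intervals that include 1, and Nop10 stood lower at 211 against 248.5 (0.8485, 0.7621 to 0.9452). Nop10 was also lower in endothelial-like cells (111 against 153, 0.7235, 0.6062 to 0.8614). These gene models overlap others on the opposite strand in some cases (Nhp2 with Rmnd5b, Dkc1 with Mpp1), and whether the counting used strand is not given in the sources used here.

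Among 8 genes of small subunit processing all were higher in both classes, with medians of 0.86 and 0.78. Utp14a, a component of the small subunit processome, stood at 22.5 against 8.06 CPM in the proximal tubule (2.788, 2.064 to 3.788) and 22.9 against 5.15 in the limb (4.45, 2.426 to 8.932). Nop14 stood at 28.2 against 12.8 (2.204, 1.716 to 2.837) and 38.2 against 16.3 (2.342, 1.631 to 3.438). Rrp12 had the largest ratio of the 36 genes in the proximal tubule, but from 28 and 11 UMIs (5.38 against 1.22, 4.428, 2.137 to 9.856), and its interval in the limb includes 1 (0.6997 to 4.239). Wdr43 and Wdr75, which act early on the transcript, had ratios of 1.95 (1.609 to 2.363) and 1.69 (1.276 to 2.238) in the proximal tubule and 1.814 (1.379 to 2.411) and 2.136 (1.359 to 3.474) in the limb. Rrp9 stood at 10.4 against 6.3 in the proximal tubule (1.648, 1.114 to 2.434). Heatr1 and Utp20 had intervals that include 1 in both classes, with Utp20 at 20.9 against 20.8 in the proximal tubule.

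In large subunit processing 7 of 8 genes were higher in the proximal tubule and 8 of 8 in the limb, with medians of 0.78 and 0.83. Gnl3, nucleostemin, a GTP-binding protein known from stem and tumour cells, stood at 59.8 against 26.4 CPM in the proximal tubule (2.264, 1.906 to 2.691) and 42.8 against 13.7 in the limb (3.115, 2.125 to 4.7). Pes1, Bop1 and Wdr12 encode 1 complex that works on the large subunit precursor, and their ratios in the proximal tubule were 2.23 (1.74 to 2.865), 1.478 (1.081 to 2.016) and 1.385 (1.091 to 1.757). In the limb the same genes had 1.834 (1.228 to 2.805), 1.803 (1.145 to 2.927) and 1.173 (0.7997 to 1.743). Nip7 (37.7 against 17.7, 2.131, 1.72 to 2.643) and Rrp1b (11.7 against 5.85, 2.002, 1.363 to 2.95) were called in the proximal tubule, and Nop16 in the limb (21.6 against 8.58, 2.522, 1.535 to 4.335). Nop2, an RNA methyltransferase, was at 9.8 against 11.8 in the proximal tubule (0.8291, 0.582 to 1.168) and 9.17 against 6.87 in the limb, both with intervals that include 1.

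The tubule classes were made of different clusters in the libraries, and the levels followed the clusters. Of the 434 I-PpoI proximal tubule-like cells, 375 lay in cluster 7, which held 0 wild-type cells and was led by Spp1, C3, Spink1, Slc13a1 and Fgg, genes that include markers of injured tubule. Its summed level was 2516 CPM (2471 to 2561). The 6 clusters with wild-type cells had levels between 934 and 1465. The only cluster of this class with at least 20 cells in both libraries, cluster 14 (28 and 465 cells), stood at 1333 (1088 to 1616) against 1167 (1113 to 1222), a ratio of 1.142 (0.927 to 1.393), with 103 I-PpoI UMIs. Of its 18 measured members 11 were higher and 0 were called (1.82% of all genes higher, 1.86% lower), with a median of 0.28 beside 0.003. Mybbp1a and Nip7 had 0 I-PpoI UMIs there, so their log2 ratios of -1.25 and -1.36 rest on the added count. Without cluster 7 the class kept 59 I-PpoI cells, and 2 members were called higher (5.16% of all genes) with a median of 0.64 beside 0.21.

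At Leiden resolution 1 both libraries had thick ascending limb-like cells in clusters 0 and 1, in unlike proportions, while cluster 31 held wild-type cells only. Cluster 0, led by Lcn2, Wfdc2, Clu and Umod, held 217 I-PpoI and 46 wild-type cells, and its summed level was 2683 (2631 to 2736) against 2718 (2576 to 2865), a ratio of 0.9874 (0.9332 to 1.045). Cluster 1, led by Umod, Slc12a1 and Egf, held 45 and 175 cells at 1190 (1016 to 1385) against 1036 (942.5 to 1136), and cluster 31 held 68 wild-type cells at 1179. At this resolution, wild-type cells of cluster 0 thus stood as high as its I-PpoI cells. They stood above the wild-type cells of clusters 1 and 31, with intervals that do not overlap. These 46 cells did not stay with the I-PpoI cells under all settings. At resolution 2 the limb cluster led by Lcn2 held 193 I-PpoI cells and 1 wild-type cell, and with no doublets left out it held 220 and 12. The match in cluster 0 may therefore set unlike cells side by side, which was not tested. Within cluster 0 the single genes differed: Ncl was at 484 against 283 (1.711, 1.443 to 2.043), Nhp2 at 109 against 55.4 (1.972, 1.345 to 3.005) and Npm1 at 780 against 657 (1.187, 1.059 to 1.333). On the other side, Nop10 was at 209 against 461 (0.4523, 0.3903 to 0.5258) and Polr1d at 246 against 412 (0.5971, 0.5132 to 0.6973). Their median was -0.14 beside -0.15 over all genes, with Polr1e called higher (34 and 0 UMIs, 9.71% of all genes) and Nop10 lower (11.5%). Mitochondrial UMIs took 8.873% and 5.925% in cluster 0 (I-PpoI and wild-type) and 27.86% and 37.37% in cluster 1. The make-up of the class by cluster therefore differed between the libraries along with the level, while within cluster 0 and within cluster 1 the interval of the summed ratio included 1 (0.956 to 1.375 in cluster 1).

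**Figure D4:**
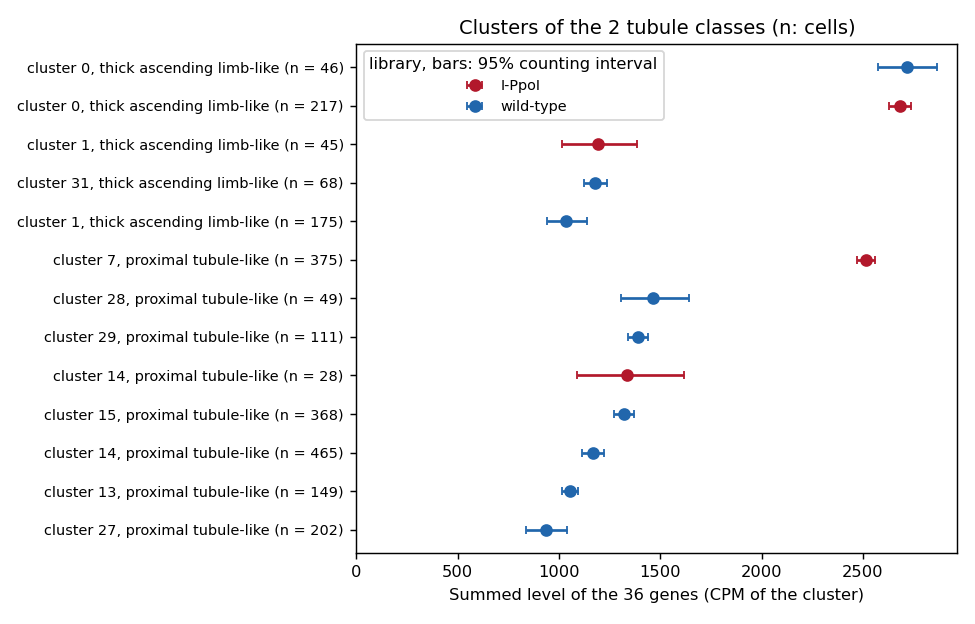
Summed level of the 36 genes in CPM (x axis) for each cluster of the 2 tubule classes with at least 20 cells in a library (y axis, number of cells in parentheses), with 95% counting intervals. Cluster 0 is near 2700 in both libraries (2683 and 2718), cluster 7 is at 2516, and all other clusters lie between 934 and 1465.

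Mitochondrial RNA and depth moved with the tubule results. Mitochondrially encoded genes took 9.917% of UMIs in I-PpoI and 25.07% in wild-type proximal tubule-like cells, and 9.547% against 26.75% in the limb. Without those UMIs in the denominator the summed levels were 2733 against 1626 in the proximal tubule and 2908 against 2029 in the limb. The medians became 0.52 (all genes 0.16) and 0.46 (all genes -0.02), and 8 members in place of 14 were called in the proximal tubule. The share of all genes called without those UMIs is not given, so this drop is not read as one of the members. The I-PpoI cells were deeper, with medians of 4732 against 3397.5 UMIs in the proximal tubule and 7155.5 against 2350 in the limb. After each cell was thinned to 1500 UMIs, a proximal tubule-like cell held UMIs of 2.705 of the 36 genes in the I-PpoI library and 1.665 in the wild-type library (8.947 and 4.634 unthinned; 102 and 376 shallower cells left out). In the limb it was 2.665 against 1.822 (10.1 and 4.941 unthinned; 44 and 126 left out). In the other 4 classes the thinned counts lay closer together, at 2.507 against 2.445 in endothelial-like, 3.0 against 2.887 in mesangial and mural-like, 2.456 against 2.564 in macrophage-like and 3.305 against 3.158 in T cell-like cells. Genes of the response to tissue dissociation, such as immediate early genes, had a median log2 ratio of 5.10 in the proximal tubule and 1.33 in the limb, but also 2.29 in endothelial-like and 1.50 in macrophage-like cells. Their part in the result was not tested.

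In the 4 compared classes outside the tubule the medians of the 36 genes lay near 0. In endothelial-like cells (303 and 591 cells) the median over 35 measured members was 0.04 beside -0.01, with 20 higher and 0 called (5.91% of all genes higher, 5.84% lower). Ncl (1.407, 1.271 to 1.556), Npm1 and Nhp2 (1.74, 1.275 to 2.382) had intervals above 1, and Tcof1 (0.64, 0.4551 to 0.8899), Nop10 and Nip7 (0.6495, 0.4223 to 0.9815) had intervals below 1. The endothelial-like libraries lay in different clusters, with 268 I-PpoI cells in cluster 5 and 417 and 148 wild-type cells in clusters 6 and 30. In mesangial and mural-like cells (84 and 72 cells) 25 members were measured and 14 were higher, with a median of 0.16 beside -0.03 and 0 called (5.0% of all genes higher, 4.17% lower). Ubtf was lower there, at 65.6 against 120 (0.5473, 0.3433 to 0.8611). In T cell-like cells (259 and 60 cells, all in 1 cluster) 28 were measured, 19 were higher and the median was 0.20 beside -0.04. Called higher were 2 (5.11% of all genes) and lower 0 (4.35%). They were Gnl3 (68 and 2 UMIs, 8.017, 2.136 to 67.54) and Mybbp1a (48 and 3 UMIs, 3.772, 1.216 to 18.93). With each cell weighted equally the endothelial-like median was -0.09 and the mesangial and mural-like median -0.07.

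**Figure D5:**
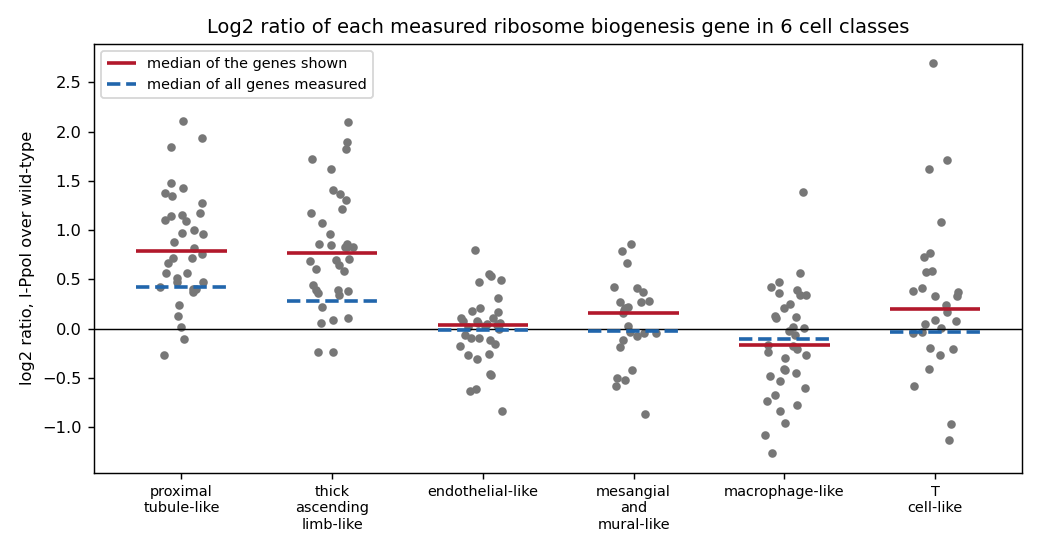
Log2 ratio of each measured gene, I-PpoI over wild-type (y axis), in 6 cell classes (x axis); each point is a gene, the red line the median of the genes shown and the dashed blue line the median of all genes measured. The medians are 0.79 and 0.767 in the 2 tubule classes and between -0.169 and 0.205 in the other 4.

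Macrophage-like cells, the phagocytes of the tissue, had snoRNP genes that were lower and a few other genes that were higher. The summed level was near equal, 2163 (2140 to 2187, 1622 cells) against 2092 (1998 to 2188, 183 cells), and the median over 36 members was -0.17 beside -0.11, with 0 called higher (5.7% of all genes) and 0 lower (7.86%). Ncl (346 against 272, 1.271, 1.118 to 1.451), Npm1 (649 against 494) and Utp14a (51.8 against 34.5, 1.502, 1.05 to 2.227) were higher. All 8 genes of the C/D and H/ACA snoRNPs were lower, beside 6340 of all 11162 genes measured. Of the 8, 6 had intervals below 1, beside 1815 of all genes, and the median of the 8 was -0.64. Nop56 stood at 32.2 against 54.5 (0.5902, 0.4392 to 0.8091), Nop58 at 38.1 against 60.05 (0.6348, 0.4796 to 0.8556) and Fbl at 65.9 against 87.8 (0.7506, 0.5964 to 0.9565). Dkc1 stood at 14.6 against 27.8 (0.5236, 0.3452 to 0.8272), Gar1 at 15.2 against 26.7 (0.5708, 0.3739 to 0.9096) and Nop10 at 127 against 192 (0.6591, 0.5638 to 0.7748). This group of 8 was singled out after its values were seen. Its median stayed between -0.76 and -0.53, with 8 of 8 lower, under each of the 11 alternatives run. All of these use the same pair of libraries, so they are no independent support. Cell cycle genes were also lower in the I-PpoI macrophage-like cells (194 against 372.5 CPM), and without cells that hold UMIs of 2 or more of the 9 cell cycle genes the median was -0.61. In cluster 10, the one macrophage-like cluster with at least 20 cells in both libraries (622 and 150), 7 of 33 measured members were higher, and the median was -0.29 beside -0.06. All 8 snoRNP genes were lower in this cluster, beside 4908 of all 9107 genes measured. The cluster holds 150 of the 183 wild-type cells of the class, so its values are no independent support. There Ncl had a ratio of 1.03 (0.882 to 1.208), Utp14a 1.368 (0.9191 to 2.115) and Npm1 1.196 (1.068 to 1.342), while Mybbp1a was lower at 0.6436 (0.4551 to 0.9302). In that cluster Nop56, Gar1 and Utp20 were called lower (5.55% of all genes; 0 were called higher, 5.34%). Cell cycle genes stood at 24.37 CPM in its I-PpoI and 30.29 CPM in its wild-type cells. Most of the wild-type cell cycle level of the class thus came from cells outside cluster 10. Proximal tubule markers stood at 2924 CPM in the wild-type and 22.8 in the I-PpoI macrophage-like cells, and the part of this in the result was not tested.

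Within the I-PpoI macrophage-like cells the genes were highest where cell cycle genes were expressed. Cluster 24 (54 I-PpoI cells) stood at 3480 CPM (3360 to 3602), and the other 4 clusters between 1830 and 2381. Its 9 cell cycle genes summed to 2749 CPM, against 18.02 to 32.6 in the others. This cluster was led by S100a8, S100a9 and C1qa, so neutrophil genes are among its leading genes, and its cells were deep (median 17001.5 UMIs). Whether doublets remain in it was not tested. After thinning to 1500 UMIs, 33 macrophage-like cells with UMIs of 2 or more cell cycle genes stood at 2889 (2435 to 3403) and 1497 cells with none at 1961 (1904 to 2020). Ncl was 2.32-fold higher in the former (1.611 to 3.243, called, where 6.17% of all genes were called higher) and Npm1 1.729-fold (1.276 to 2.293). The median over 29 measured members was 0.79 beside 0.28. Many of these members had few UMIs in the 33 cells, such as Dkc1 with 1 and Wdr75 and Bop1 with 0. The median therefore rests in part on the added count. The cells with 2 or more cell cycle genes were deeper before thinning (median 17911 against 8106 UMIs). Of all genes 1.63% were called lower, and no member was.

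Of a list of 102 other ribosome biogenesis genes, most were higher in the tubule classes and most were lower in endothelial-like and macrophage-like cells. In the proximal tubule 96 of 102 were higher, with a median of 0.65 beside 0.42, and 26 were called higher and 1 lower, a share of 25.49% beside the background of 25.5%. Eif6, which keeps the large subunit from joining too early, had a ratio of 5.782 (5.203 to 6.436), Taf1b, of the polymerase I promoter factor, 3.801 (2.373 to 6.236) and Surf6 3.33 (2.181 to 5.165), while Wdr18 was lower at 0.3918 (0.3219 to 0.474). In the limb 95 of 102 were higher, with a median of 0.52 beside 0.28. Called higher were 20, which is 19.61% beside the background of 17.5%, among them Nsa2 (3.022, 2.609 to 3.514), Taf1d (3.325, 2.476 to 4.542) and Noc4l (4.681, 2.332 to 10.65). In endothelial-like cells 33 of 101 were higher (median -0.12), and 0 were called higher (5.91% of all genes) and 3 lower (5.84%), namely Pwp2, Noc2l and Rpf2. In macrophage-like cells 25 of 102 were higher (median -0.35), with 1 called higher (5.7% of all genes) and 2 lower (7.86%). Within the clusters that both libraries share at resolution 1, 35 of 102 were higher in limb cluster 0 (median -0.19 beside -0.15). In proximal tubule cluster 14 it was 23 of 49 measured (median -0.11 beside 0.003), from 106 I-PpoI UMIs. At resolution 2 the limb cluster led by Lcn2 kept 1 wild-type cell. These values therefore do not show whether tubule cells of the same type differ between the libraries.

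Myc, the gene of the transcription factor named above, stood at 59.9 CPM in I-PpoI and 3.31 in wild-type proximal tubule-like cells (312 and 30 UMIs; 18.09, 12.42 to 27.27) and at 39.7 against 5.58 in the limb (7.12, 4.044 to 13.67). These UMIs lay in few clusters. Of the 312 in the proximal tubule, 306 came from cluster 7, which holds no wild-type cell, and the shared cluster 14 had 0 and 1. In the limb all 156 I-PpoI UMIs came from cluster 0, where Myc was at 41.2 CPM (34.98 to 48.2) against 19.8 (9.49 to 36.4), with intervals that overlap. Endothelial-like cells also differed, at 17.99 against 0.797 (32 and 2 UMIs; 22.57, 5.757 to 194.3), where the summed level of the 36 genes had a ratio of 1.106 (1.06 to 1.154). T cell-like cells were at 42.4 against 10.3 (35 and 2 UMIs; 4.126, 1.06 to 35.41). In macrophage-like cells Myc was lower, at 29.7 against 46.7 (0.6364, 0.4631 to 0.8956). Its partner gene Max had ratios of 1.35 (1.035 to 1.757) in the proximal tubule and 0.5074 (0.396 to 0.6494) in the limb. Myc is also an immediate early gene, and the dissociation list above was higher by its median in these classes. That includes macrophage-like cells (1.50), where Myc was lower. In limb cluster 0 the list had a median of -0.60, while Myc was at 41.2 against 19.8 CPM. The part of dissociation in the Myc values was not tested.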

How the data were processed

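The deposited values are raw UMI counts (whole numbers for each gene in each barcode). Per the labels' protocols, Cell Ranger and an mm10 reference produced them. The labels give Cell Ranger version 3.1 and the file headers give 6.0.2, and which was used is not settled here. The 36 genes and all lists were chosen with earlier results of these data known. The I-PpoI library held 5268 barcodes (37811289 UMIs) and the wild-type library 5536 (27793633 UMIs). Cells with at least 200 genes and at most 50% mitochondrial UMIs were kept. The automatic threshold of Scrublet marked 0.709% and 0.0933% of barcodes, so the top 4% of doublet scores was left out in both, which left 3918 and 3083 cells. Both libraries were clustered together with scanpy 1.11.5 (2000 variable genes without the 36 and the 102 other ribosome biogenesis genes, 30 components, 15 neighbours, Leiden resolution 1). Marker lists for 19 cell types gave names to 26 of 32 clusters and left 6 unnamed. A cluster took a name when 3 or more markers were at 25 CPM or above and, after adding 10 CPM, at least 4 times their median over clusters.

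UMIs were summed per class and library, for 6 classes with at least 50 cells in both. Sums have exact Poisson and ratios exact conditional binomial intervals. Medians of log2 ratios use 0.5 added counts and genes with at least 20 UMIs, and their intervals are order-statistic intervals over genes taken as independent. All 36 genes could be named. Those described in full had the most UMIs or were called, and of the other biogenesis genes the first 3 called each way by the interval bound nearest to 1. On simulated counts for the proximal tubule-like class (11353 genes), intervals held the true ratio in 95.73% of unchanged genes, and 93% of 4-fold and 44% of 2-fold changes were called. The 4-fold share was 91% in thick ascending limb-like (10908 genes), 95% in endothelial-like (9861), 84% in mesangial and mural-like (5945), 78% in macrophage-like (11145) and 71% in T cell-like cells (5332), and the 2-fold share there was 38%, 49%, 42%, 32% and 38%. A true 2-fold change lies at the threshold of 2, so the rule itself limits its share. The simulated shares describe the intervals and the rule under counting error. They are no error rates for differences between mice, libraries or the cluster make-up of a class. RNA free in the droplets was not removed. UMIs were read at transcript ends and not divided by length, so levels are not compared between genes. A check of podocyte marker genes is not reported here.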

Additional observations from a re-analysis of the deposited data

Results flagged for a closer look

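In 14 cases the interval of a gene's I-PpoI over wild-type ratio lay above 1 in one cell class and below 1 in another, in the same pair of libraries. How many of all genes measured do so is not given. Of all genes, 5770 of 11361 had intervals above 1 in proximal tubule-like cells. Intervals below 1 were held by 1815 of 11162 genes in macrophage-like and 1729 of 9900 in endothelial-like cells. The 14 cases are therefore not read as a property of these genes. The difference between classes was not tested, and each value is the difference of the log2 ratios. Of the 14 cases, 9 set a tubule class against macrophage-like cells through snoRNP genes: the proximal tubule-like difference was 1.30 for Fbl, 1.60 for Nop56, 2.01 for Nop58, 2.34 for Dkc1, 2.68 for Gar1 and 1.27 for Nop10, and the thick ascending limb-like difference 1.03 for Fbl, 1.63 for Nop56 and 2.04 for Nop58. Nop10 also differed between the proximal tubule-like and the thick ascending limb-like class by 0.90 and from endothelial-like cells by 1.13. The proximal tubule-like class differed from endothelial-like cells by 2.07 for Tcof1 and 1.70 for Nip7, and from mesangial and mural-like cells by 1.28 for Ubtf.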

How the results depend on the processing

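No paired analysis was possible because each group has 1 library. In proximal tubule-like cells the median of 0.79 became 0.28 in clusters shared by the libraries and 0.37 when centred on all genes, and stayed between 0.52 and 0.81 otherwise. The 14 members called higher became 8 without mitochondrial UMIs, 5 when centred, 2 without cluster 7 and 0 in shared clusters. The log2 ratio turned to -0.33 for Rrp1b with cells weighted equally, and to -1.25 for Mybbp1a and -1.36 for Nip7 in shared clusters. In thick ascending limb-like cells the median of 0.77 became 0.43 with a mitochondrial limit of 25% and 1.14 at resolution 2. There the 11 called members became 18 with cells weighted equally, 18 with no doublets left out, 21 at resolution 2, and 6 in shared clusters or without cluster 31. With no doublets left out the limb cluster led by Lcn2 held 12 wild-type cells, and at resolution 2 it held 1. Apart from the proximal tubule values without cluster 7 and in shared clusters, the share of all genes called is not given. A shift of the whole class cannot then be told from one of the members. The T cell-like over proximal tubule-like ratio of 1.258 (I-PpoI) became 1.184 without mitochondrial UMIs, 1.19 with equal weights and 1.369 with at least 500 genes per cell, and that of 2.124 (wild-type) became 1.699 and 1.861 without mitochondrial UMIs and with the 25% limit. The cause was not tested. The medians of the other 4 classes stayed within their intervals. Centring, counts of called members, the alternatives without single-library clusters or cycling cells, and the snoRNP median and all thick ascending limb-like and mesangial and mural-like values were added after the data were seen. Not run were shared clusters in endothelial-like cells (there are none) and T cell-like cells at resolution 2 (8 wild-type cells). Counting error limits the T cell-like, mesangial and mural-like and wild-type macrophage-like values most.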

Other observations

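Cytosolic ribosomal protein genes, the products that the nucleolus assembles, were higher in the I-PpoI library in all 6 classes compared. In proximal tubule-like cells the median log2 ratio was 1.33 (80 of 82 measured were higher), and they took 11.73% against 4.732% of UMIs. The tubule classes are made of different clusters in the libraries. In the clusters shared at resolution 1 the median was 0.03 in cluster 14 (45 of 81 higher) and 0.15 in limb cluster 0 (56 of 81). The median was 0.98 in thick ascending limb-like cells (80 of 81 higher), 0.46 in endothelial-like (80 of 81), 0.46 in T cell-like (80 of 81), 0.34 in mesangial and mural-like (80 of 81) and 0.31 in macrophage-like cells (76 of 81). In macrophage-like cells these genes were therefore higher while all 8 snoRNP genes, a group singled out after its values were seen, were lower.

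Groups outside these classes gave further values. Cluster 25, which stayed unnamed, with both the intercalated cell genes Atp6v1g3 and Aqp6 and the principal cell genes Aqp2, Fxyd4 and Hsd11b2 among its leading genes (45 and 55 cells), stood at 2262 CPM (2170 to 2357) in the I-PpoI and 1685 (1606 to 1767) in the wild-type library, a ratio of 1.342 (1.26 to 1.43) with mitochondrial shares of 8.997% and 19.82%. Heatr1 was at 57.9 against 16.8 there (3.456, 1.985 to 6.33). Of 33 measured members in cluster 25, 4 were called higher, which is 12.12% beside 10.87% of all genes. The median was 0.42 beside 0.22 over all genes. In the 30 and 30 B and plasma-like cells the level was 1023 (918.2 to 1136) against 2602 (2266 to 2973). The I-PpoI cells held 341249 UMIs with a median of 4150, and the wild-type cells 83023 with a median of 2706. Deep cells therefore weigh heavily in the I-PpoI level of this class. The ribosomal protein median was -0.63 there beside -1.01 over all 1354 genes measured, and the 7 measured members were all lower with a median of -1.67.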
